A study of Mus musculus with 2 samples.

Results

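miR-342 is a microRNA pair cut from the mir-342 hairpin, which lies in an intron of Evl, and its 3p arm is abundant in naive T cells. The members described here are the 2 mature arms, miR-342-3p and miR-342-5p, taken by name from the tables of 2 small RNA libraries. They are 2 of 1125 mature miRNAs listed in at least 1 library, and both passed a minimum mean of 10 CPM over the libraries, as did 298 miRNAs in all (CPM is a miRNA's reads per 1000000 reads listed for that library).

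Both libraries came from splenic CD4+CD62L+ naive helper T cells of female C57BL/6 mice, whose age and number are not given in the labels. The Th0 culture, the control, held anti-CD28 (1 µg/ml) and antibodies that block IFN-γ and IL-4 (5 µg/ml apiece). The Th17 culture held the same antibodies at the same doses, and in addition IL-23 and IL-6 (40 ng/ml apiece), IL-1β (10 ng/ml), TGF-β (2 ng/ml) and antibodies to IL-12 and IL-2 (5 µg/ml apiece). Medium with 10% serum was common to both, the labels name no anti-CD3, and the culture time of 6 to 7 days is stated with the Th17 conditions. If Th0 was cultured for another time, time and cytokines cannot be told apart in any ratio given here.

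The series text states triplicates, but how they were combined is not stated. For each group 1 column of reads was analysed and is called 1 library here, though it may combine several cultures. Intervals are 95% intervals of counting error alone, and no p-value compares the conditions. They treat each read as a separate molecule, so PCR copies of 1 molecule, which are not told apart, can make them too narrow. For Th0, 8358010 reads were listed over 986 miRNAs, and for Th17, 11975371 reads over 1012. In both libraries the hematopoietic miRNAs miR-142a-5p and miR-142a-3p were high, with a sum of 60541 CPM in Th0 and of 67051 in Th17, and the lymphocyte miRNA miR-150-5p stood at 9910 and 12282 CPM. The 15 markers of myeloid, erythroid, endothelial, epithelial, neural and stromal or muscle cells had sums of 597 (Th0) and 314 CPM (Th17). Of these, the myeloid miR-223-5p, the erythroid miR-144-3p and the muscle miR-206-3p were at 0 reads in Th0.

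A miRNA hairpin is cut by Drosha and Dicer into a short duplex, and usually the strand from the 5p or the 3p side is kept in Argonaute while the other is lost. The kept strand finds target mRNAs mainly through its seed, the bases 2 to 8 from its 5′ end. An intronic hairpin is cut out of the primary transcript of its host gene, so host transcription normally supplies it. The host Evl encodes a member of the Ena/VASP family, proteins that bind actin filaments and help them grow. Evl mRNA is not measured by these libraries.

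The sequences of the hairpin and its arms are shown because the arms differ in seed and therefore in the targets they can recognise. They are from RefSeq for GRCm38.p6, the assembly also called mm10, and lie on the plus strand of chromosome 12. In the hairpin line the capitals mark both arms, and in the arm lines they mark the seed.
mir-342: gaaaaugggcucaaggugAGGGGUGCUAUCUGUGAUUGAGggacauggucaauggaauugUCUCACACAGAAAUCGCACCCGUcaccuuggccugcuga
miR-342-5p: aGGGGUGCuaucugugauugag
miR-342-3p: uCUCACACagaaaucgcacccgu

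The hairpin spans 99 bases, at chr12:108658620-108658718. The 5p arm has 22 bases (108658638 to 108658659) and the 3p arm 23 bases (108658680 to 108658702), with 20 bases between them. A fold predicted with RNAfold had a free energy of -46.8 kcal/mol and 33 base pairs, of which 17 joined the arms to each other. In that fold the 5p seed paired within the far end of the 3p arm and the 3p seed within the far end of the 5p arm. Among 1679 mature names in the RefSeq table none other than these arms held either 7-base seed, GGGGUGC or CUCACAC. With bases 2 to 7 alone, 2 further names matched, both to the 5p arm. Of these, miR-6943-5p had 1 read in Th0 and 0 in Th17, and miR-6931-5p had 0 in each library, where a limit of 3 reads for a count of 0 comes to 0.359 CPM in the former and 0.251 CPM in the latter.

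In GENCODE M21 Evl runs from 108554720 to 108688516 on the same strand. The hairpin lies inside an intron of 5 of its 7 annotated transcripts, and the other 2 start downstream of it. That intron is 20189 bases long (108653100 to 108673288) in each of the 5, and the hairpin starts 5520 bases after the intron's first base. It lies after exon 3 in Evl-201, Evl-202, Evl-203 and Evl-206 and after exon 4 in Evl-204. The map of Evl shows that transcripts from several annotated starts run through the hairpin.

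**Figure D1:**
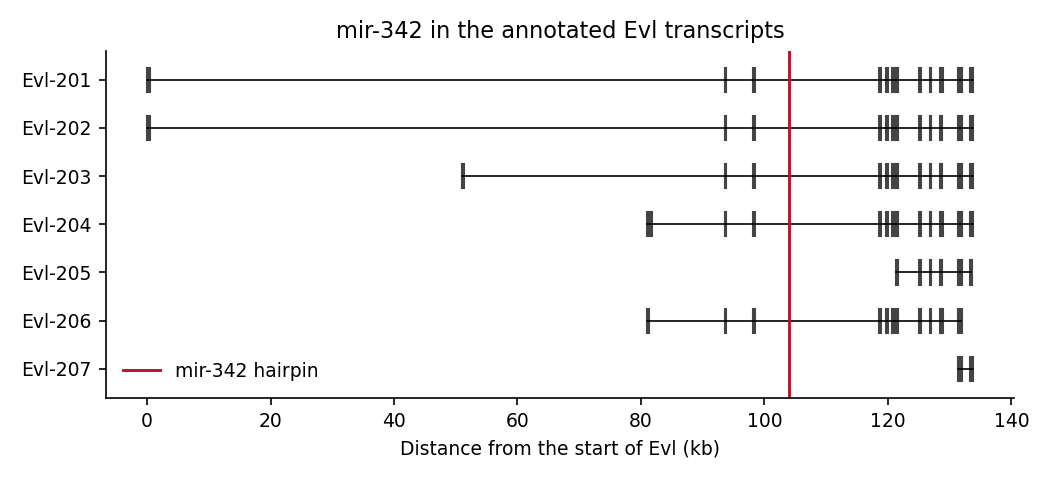
Annotated transcripts of Evl (rows), with exons as boxes and introns as lines, against the distance in kb from the start of the gene. The red line marks mir-342, which sits 103900 bases from the gene's start, in an intron of 5 of the 7 transcripts.

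The question the libraries address is how miR-342 differs between control cells and cells cultured toward the Th17 state, the lineage that makes interleukin 17. Both arms were lower in the Th17 library. miR-342-3p, the abundant arm, was counted 53069 times in Th0 and 42350 times in Th17. Scaled to the listed reads, these counts were 6349 CPM (interval 6296 to 6404) and 3536 CPM (3503 to 3570). The Th17 level was therefore 1.80-fold lower (1.77 to 1.82), a log2 ratio of -0.84. In the authors' deposited TPM values, which use a larger total, it stood at 5849 and 3240. In share of the listed reads, the arm took 0.635% of the reads in Th0 and 0.354% in Th17.

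miR-342-5p, the rarer arm, was counted 1356 times in Th0 and 899 times in Th17. Its level was 162 CPM (154 to 171) in Th0 and 75.1 CPM (70.2 to 80.1) in Th17. This arm was 2.16-fold lower (1.98 to 2.35), a log2 ratio of -1.11. For neither arm did the counting intervals of the libraries overlap. Whether the differences exceed the spread between cultures cannot be tested with 1 library per group, and in bulk RNA fewer cells that make miR-342 and less miR-342 per cell cannot be told apart.

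**Figure D2:**
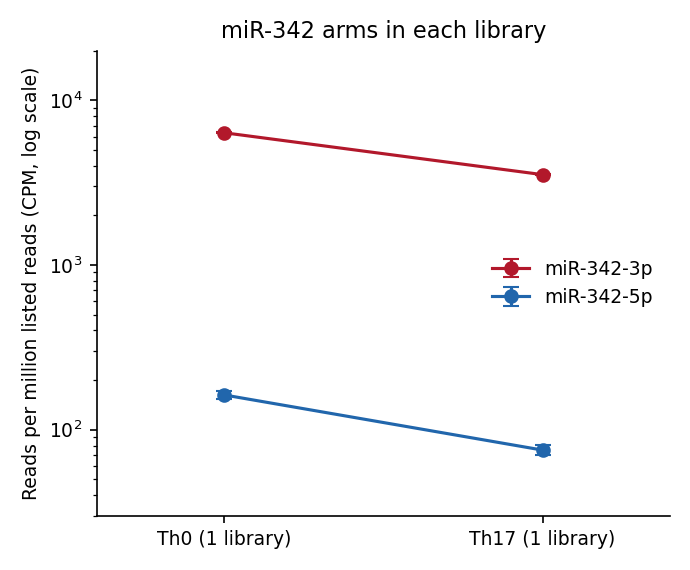
Level of both arms in the Th0 and Th17 libraries (x axis), in CPM on a log scale (y axis), with bars for the counting interval. The 3p arm lies at 6349 and 3536 CPM, and the 5p arm at 162 and 75.1 CPM.

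Lower values of this size were common among the miRNAs measured. At a mean of at least 10 CPM, 76 of 298 miRNAs (25.5%) were at least 1.5-fold lower in Th17, and 39 (13.1%) at least 2-fold lower. In the other direction 50 (16.8%) were at least 1.5-fold higher and 20 (6.71%) at least 2-fold higher. With the 10 most abundant miRNAs left out of the scaling total, the 2-fold counts were 48 lower and 15 higher. Both arms of miR-342 passed the 1.5-fold mark, and miR-342-5p alone passed the 2-fold mark. Over the 298 the median log2 ratio was -0.080. In the order from the lowest ratio upward, miR-342-5p was at place 35 and miR-342-3p at place 53.

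**Figure D3:**
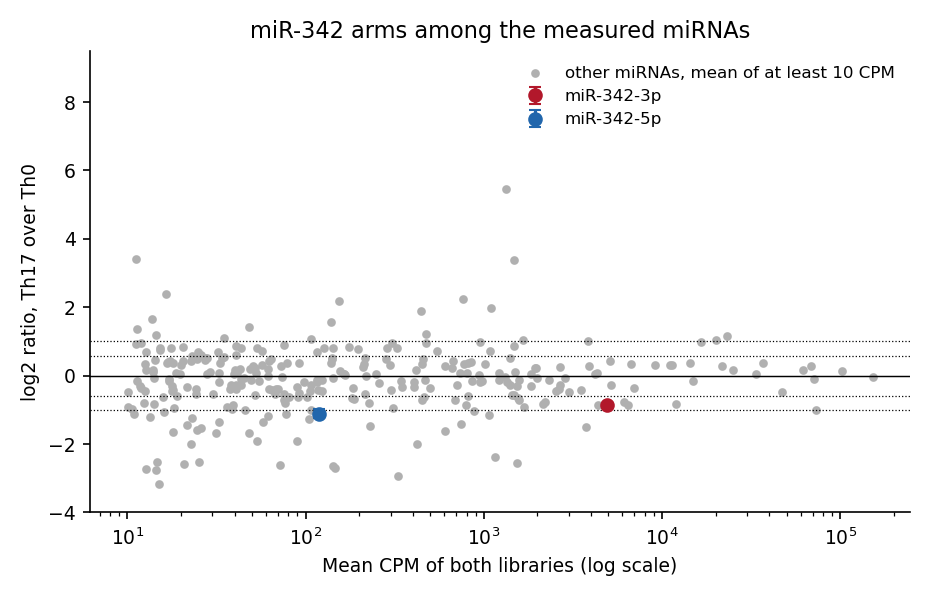
Log2 ratio of Th17 over Th0 (y axis) against mean CPM on a log scale (x axis) for the 298 measured miRNAs, with dotted lines at 1.5-fold and 2-fold. The 3p arm (red) sits at -0.84 among the abundant miRNAs and the 5p arm (blue) at -1.11 near a mean of 100 CPM, and miRNAs of similar level spread to both sides of 0.

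The non-lymphoid markers moved the same way as miR-342 in their sum, from 597 to 314 CPM, and their part in the result was not tested. The sum was made up mostly of the 5 epithelial markers (387 and 208 CPM) and the 2 endothelial arms of miR-126a (191 and 85.9 CPM). Within the epithelial set miR-200c-3p was higher in Th17, at 23.1 and 31.7 CPM. The neural marker miR-9-5p was at 13.9 and 4.76 CPM. The other 3 kinds had higher sums in Th17, at 3.35 and 6.93 CPM for the myeloid, 0.838 and 6.35 CPM for the stromal and muscle, and 0.718 and 2.17 CPM for the erythroid markers.

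By abundance, miR-342-3p was at place 24 in Th0 and place 31 in Th17. The miRNAs just above it in Th0 were miR-378a-3p (7747 CPM), miR-30e-5p (7843 CPM) and let-7g-5p (8120 CPM), and those just below were miR-26b-5p (5906 CPM), miR-181c-5p (5643 CPM) and miR-27a-3p (5635 CPM). The counting intervals of all 6 lay apart from that of miR-342-3p. Their log2 ratios went both ways, from -0.87 for miR-27a-3p and -0.78 for miR-378a-3p to 0.33 for miR-26b-5p, so miRNAs of like level in Th0 did not share a direction.

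The 5p arm was at place 134 in Th0 and place 161 in Th17. Its neighbours in Th0, miR-27a-5p (165 CPM), miR-486b-5p and miR-486a-5p (both 163 CPM) above it and miR-326-3p, miR-296-5p and miR-339-3p (146 CPM) below it, had counting intervals that overlapped its own, so this order is not resolved by the counts. miR-486a-5p and miR-486b-5p are near-identical copies whose reads may have been divided or counted for each. In Th17 these 6 lay between 61.5 and 168 CPM. Of them, miR-296-5p was lower by more than miR-342-5p, with a log2 ratio of -1.28, and the other 5 were between -0.07 and 0.15.

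Within the hairpin, the share of the 3p arm needs no scaling between libraries. The Th0 share was 97.5% (97.37 to 97.64%) and the Th17 share 97.9% (97.78 to 98.05%, both intervals exact binomial), so nearly all miR-342 reads were 3p in each library. The difference was 0.41 percentage points. In reads, there were 39.1 of the 3p arm for each of the 5p arm in Th0 and 47.1 in Th17. The odds of 3p over 5p were 1.20 times higher in Th17 (exact conditional interval 1.10 to 1.31), which is the same quantity as the gap between the log2 ratios of the arms, 0.27. Summed over both arms, miR-342 went from 6512 to 3611 CPM, 1.80-fold lower (1.78 to 1.83), since the 3p arm sets the sum.

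Among 173 hairpins with at least 100 reads in each library, counting hairpins that share a mature miRNA as 1, the 3p arm led in 68 and the 5p arm in 105 in Th0. The median share of the leading arm was 98.1% in Th0 and 98.4% in Th17, so the 97.5% of mir-342 lay slightly under the middle. Of the 68, 38 had a higher 3p share in Th0. The hairpins nearest to it in 3p share in Th0 were mir-501 (97.7%), mir-363 (97.8%) and mir-27a (97.2%). In Th17 their shares were 97.9%, 98.0% and 94.8%, and mir-27a was the one of these whose share differed by more than its counting error.

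A change in arm odds as large as that of mir-342 was not rare. Odds could be computed for 167 hairpins, those with reads of each arm in each library, and 38 (22.8%) had an interval above 1, as mir-342 did. Toward the arm that already led in Th0, whichever it was, 40 (24.0%) moved with an interval that excluded 1. Toward the other arm 37 did so, and 90 had an interval that spanned 1. The absolute log2 odds ratio of mir-342 was 0.27, the median was 0.41, and 64.1% of the hairpins had a larger value.

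**Figure D4:**
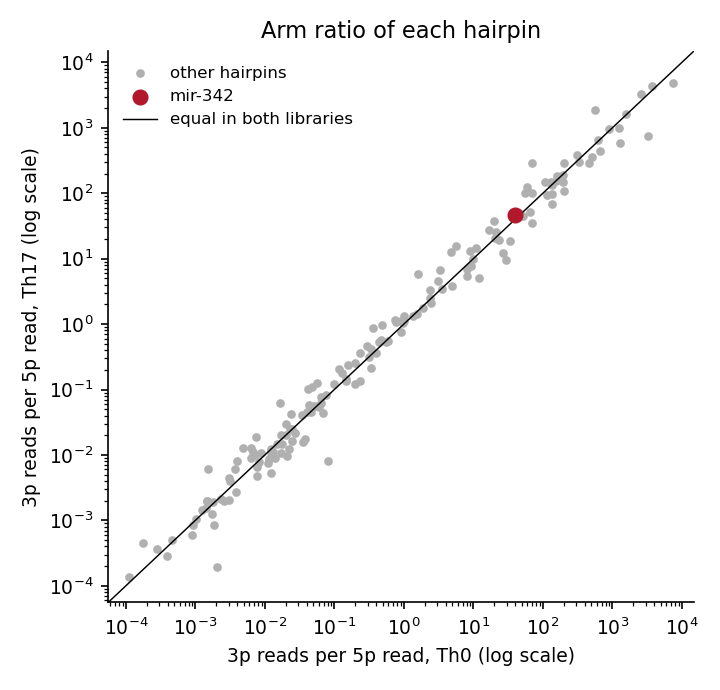
Reads of the 3p arm per read of the 5p arm in Th0 (x axis) and Th17 (y axis), both on log scales, for 167 hairpins, with a line where both libraries are equal. mir-342 (red) lies at 39.1 in Th0 and 47.1 in Th17, close to the line.

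The arms could also be compared as a pair. Of 75 hairpins of 1 precursor with each arm at a mean of at least 10 CPM, 30 had both arms below 0 on the log2 scale, 26 had both above 0 and 19 had arms on opposite sides. mir-342 was 1 of 14 hairpins (18.7%) with both arms at least 1.5-fold lower. Of these 14, mir-342, mir-15b in Smc4, mir-33 in Srebf2 and mir-362 in Clcn5 lay within an intron of a coding gene. The hairpin mir-126a lay within Gm20532 and overlapped an exon of a coding gene. The rest had no coding host: mir-15a, mir-17, mir-18b, mir-20a, mir-20b, mir-148a, mir-221, mir-296 and mir-363. Placements among all 75 were not tallied, so these are no more than a list. The gap of 0.27 between the arms of mir-342 was under the median absolute gap of 0.32, and 43 hairpins had a larger gap.

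The naive T cell list holds 17 miRNAs known to be abundant in resting T cells, miR-342-3p among them, and was chosen with earlier results of these data known. All 17 passed the minimum. At least 1.5-fold, 3 were lower (miR-342-3p, miR-142a-3p and miR-29c-3p) and 3 higher (miR-29a-3p, miR-181a-5p and miR-29b-3p), or 17.6% in each direction, beside the 25.5% and 16.8% of all miRNAs. The median log2 ratio of the list was 0.27, and 0.29 without miR-342-3p, beside -0.080 over all miRNAs. The 3p arm of miR-342 had the second lowest ratio of the list, after miR-142a-3p at -0.93, whose levels were 2194 and 1153 CPM.

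Over the 17, 6 had a log2 ratio below 0 and 11 above 0, while the median over all 298 miRNAs was -0.080. The 17 include several members of some families and both arms of miR-142a, so they are not separate cases. Besides those named, the values below 0 were miR-16-5p (-0.49, from 55353 to 39500 CPM), miR-30e-5p (-0.35) and miR-30b-5p (-0.12). miR-150-5p, which restrains the transcription factor Myb in lymphocytes, was 1.24-fold higher (log2 ratio 0.31). miR-181a-5p, which raises the sensitivity of T cell receptor signalling, went from 11156 to 22098 CPM, a log2 ratio of 0.99. miR-26a-5p and let-7g-5p had log2 ratios of 0.37 and 0.31. let-7f-5p was at 0.057, and at -0.073 when the 10 most abundant miRNAs, of which it is 1, were left out of the scaling total. How reads that match several members of a family were assigned is not stated for these tables, which bears on the let-7, miR-29 and miR-30 values. The arms of miR-342 are listed with 1 precursor, and no other RefSeq name held their seeds.

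**Figure D5:**
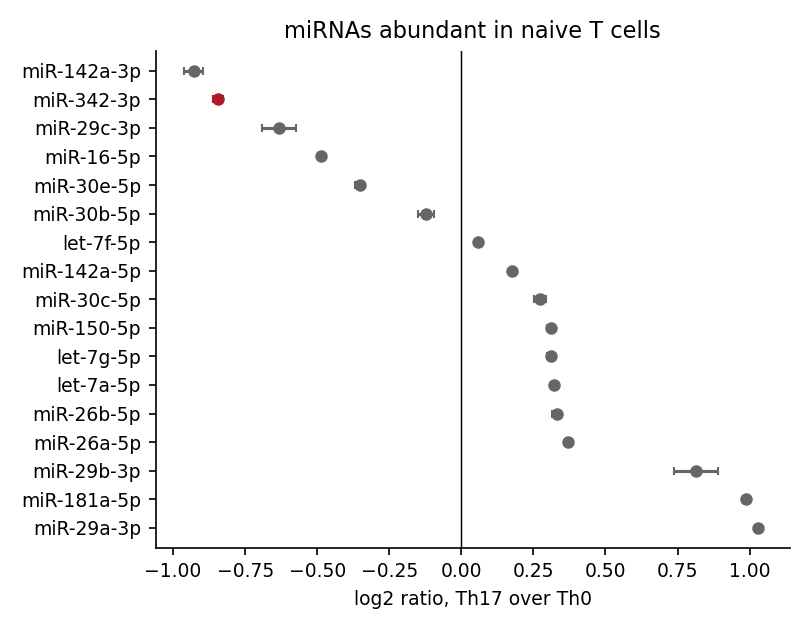
Log2 ratio of Th17 over Th0 (x axis) for the 17 miRNAs of the naive T cell list (rows), with bars for the counting interval. miR-342-3p (red) lies at -0.84, next to miR-142a-3p at -0.93, while miR-29a-3p lies at 1.03 at the other end.

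Intron-hosted miRNAs went both ways. Of the 298 miRNAs, 118 came from 1 precursor that lies within an intron of a coding gene on the same strand and overlaps no exon of it. Their median log2 ratio was -0.080, the same value as over all, and -0.053 without the miR-342 arms. At least 1.5-fold, 28 (23.7%) were lower and 23 (19.5%) higher. From the lowest ratio upward, miR-342-5p was at place 10 of the 118 and miR-342-3p at place 19. The range ran from -2.73 for miR-7683-5p in Slamf7 to 5.46 for miR-10b-5p in the Hoxd region.

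By log2 ratio over these 2 libraries, among 157 other miRNAs whose mean reached 100 CPM, the nearest to miR-342-3p were miR-186-5p (Zranb2 intron, -0.85), miR-106b-5p (Mcm7 intron, -0.85), miR-15b-5p (Smc4 intron, -0.84), miR-93-5p (-0.83) and miR-27a-3p (-0.87). Their levels in Th0 ran from 1026 CPM for miR-106b-5p to 15275 CPM for miR-93-5p. The nearest to miR-342-5p were miR-17-5p (-1.15), miR-31-5p (-1.03), miR-126a-5p (-1.02), miR-92a-3p (-0.99) and miR-296-5p (-1.28). Likeness over 2 libraries rests on a single ratio per miRNA.

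Along chromosome 12, 71 other hairpins are annotated within 2 Mb of mir-342, and 39 of them had reads. The nearest with reads is Mir345, which lies 178254 bases downstream of mir-342, within Slc25a47, and overlaps an exon of a coding gene. Its arms were lower in Th17 by less than those of miR-342: miR-345-5p went from 46.3 to 35.4 CPM, a log2 ratio of -0.39 (-0.59 to -0.18), and miR-345-3p from 44.3 to 36.7 CPM, a log2 ratio of -0.27 (-0.48 to -0.07). Farther on, 68 hairpins are annotated between Mir345 and Mir1247, a stretch that takes in the miRNA clusters of the imprinted Dlk1-Dio3 region, which are expressed from the maternal chromosome. Reads were listed for 37 of the 68, and their sum went from 138 to 54.9 CPM, 2.51-fold lower (2.28 to 2.76). miR-127-3p made up 60.5 and 30.3 CPM of those sums. Mir1247, the remaining hairpin with reads, had 3 reads in Th0 and 49 in Th17 (0.359 and 4.09 CPM). Both sums over the 37 were below the level of miR-342-5p, the rarer arm, in the same library.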

How the data were processed

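Small RNA libraries (TruSeq chemistry, Illumina sequencing, per the labels' protocols) of 1 Th0 and 1 Th17 sample were analysed. The authors deposited raw read counts per mature miRNA and TPM values, which per the file headers and values are those counts scaled by 1 total per library; the totals (9072995 and 13070648 reads) exceed the listed reads. The submitters' processing notes name mm10 as the build. The aligner, trimming and treatment of reads matching several miRNAs were not given in the sources used here.

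Each count was divided by its table's column sum, and a miRNA missing from a table counted as 0. Ratios carry exact conditional (Clopper-Pearson) 95% intervals and levels exact Poisson intervals (scipy 1.17.1). The interval steps were tested on simulated Poisson and binomial counts, which hold no PCR copies and no spread between cultures. Precursors were placed by GENCODE M21 (766 of 782 matched), and sequences were taken from RefSeq (935 of 1125 names matched). Hairpins were folded with RNAfold (ViennaRNA 2.7.2). TMM factors (edgeR 4.0.16) and DESeq2 1.42.0 size factors were used only as alternative scalings. Named miRNAs are the arms, members of the lists, 3 neighbours in level on each side and the 5 nearest ratios. Also named are the 3 nearest arm shares, chromosome neighbours, seed matches and the 14 hairpins with both arms at least 1.5-fold lower. Of the intron-hosted miRNAs, examples were named after their values were seen. Members and lists were chosen with earlier results of these data known.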

Additional observations from a re-analysis of the deposited data

How the results depend on the processing

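Both arms were lower in Th17 under all 4 other scalings and with 0.5 CPM added. The log2 ratio of miR-342-3p was -0.77 with DESeq2 size factors and -0.97 without the 10 most abundant miRNAs in the total, a scaling that shifts every ratio by -0.13; that of miR-342-5p was -1.24 in the latter. Over the 4, miR-342-3p was 1.70- to 1.96-fold lower and miR-342-5p 2.05- to 2.36-fold lower. Counts of miRNAs past a fold move with the minimum because it sets how many enter, so bare counts are not comparable across minima. With no minimum beyond 1 read in each library, 228 were 1.5-fold lower, 203 1.5-fold higher, 150 2-fold lower and 130 2-fold higher. At a mean of at least 100 CPM, which each arm reached along with 157 other miRNAs, these were 36, 27, 15 and 13. The odds ratio of the arms does not depend on scaling. Of hairpins with an odds ratio, 64.1% had a larger arm shift than mir-342, 63.5% at 1000 reads or more and 63.4% for hairpins of 1 precursor. No row of either arm was repeated, so the alternative for repeated rows was not run. No paired analysis was possible because each group has 1 library. Depth limits the 5p arm most, with 899 reads in Th17.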

Other observations

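Which arm of a hairpin is kept has been linked to its first base and to how weakly its 5′ end is paired. For hairpins of 1 precursor with both arms in RefSeq and at least 100 reads in each library, the arm leading in Th0 began with U in 60 (56.1%) and the other arm in 18 (16.8%). miR-342-3p begins with U and miR-342-5p with A. Hydrogen bonds of the first 4 bases of each arm were counted in the fold predicted by RNAfold, with 3 for G-C and 2 for A-U or G-U. The leading arm had the fewer bonds in 68 hairpins (63.6%), an equal number in 17 and more in 22. mir-342 was 1 of the 22, with 10 bonds at the 3p end and 8 at the 5p end. The count took in pairs with bases outside the other arm. In mir-342 the first base of the 3p arm paired with base 41 of the hairpin, just outside the 5p arm. Without that pair its 3p end would not have had more bonds than its 5p end. The bond counts are over predicted folds, and hairpins of a family share sequence.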
